A study of Mus musculus with 32 samples.

Results

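Fatty acids are the main fuel of the liver between meals, and the genes described here code for the proteins that take them in, burn them and turn the product into ketone bodies. The set is a list of 32 genes named by symbol: fatty acid uptake and binding (Cd36, Fabp1), the carnitine shuttle (Slc22a5, Cpt1a, Cpt2, Crat), the mitochondrial beta-oxidation spiral (Acadvl, Acadl, Acadm, Acads, Hadha, Hadhb, Hadh, Echs1, Acaa2), enzymes that prepare unsaturated fatty acids for the spiral (Eci1, Eci2, Decr1), electron transfer (Etfa, Etfb, Etfdh), peroxisomal oxidation and peroxisome division (Acaa1a, Acaa1b, Ehhadh, Hsd17b4, Pex11a), omega-oxidation (Cyp4a10, Cyp4a12a, Cyp4a14), ketone bodies (Acat1, Bdh1) and Pdk4. All 32 were found among the 55471 genes of the count table, through the symbols paired with gene IDs in the deposited log2 table, and all 32 are among the 14456 genes that passed the filter on low counts. The rule names the genes and sets no threshold on a measured value.

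The samples are livers of 32 male C3H/HeNCrl mice, all fed a high fat diet, with no genetic change named in the labels. Mice lived in a short light (SL) or a long light (LL) photoperiod and livers were taken at ZT (zeitgeber time, in hours on the light schedule) 0, 6, 12 or 18, with 4 mice in each of the 8 groups. The sources used here do not give the daily hours of light, the event that sets ZT0, the age of the mice or their feeding times. Polyadenylated RNA was sequenced, one library per mouse, so n = 4 per group and p-values measure the spread between mice.

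Long-chain fatty acids enter mitochondria as carnitine esters, a step gated by CPT1A, and are then shortened step by step in a repeating series of reactions. Very long chains are first shortened in peroxisomes, and a smaller share is oxidised at the far end of the chain by CYP4A enzymes in the endoplasmic reticulum. Many genes of all these routes are textbook targets of the nuclear receptor PPAR alpha, which is active in the fasted liver. PDK4 inhibits the pyruvate dehydrogenase complex and so spares glucose carbon when fatty acids are burned.

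Libraries held 9095615 to 27462776 counted reads (median 15665632.5), and every member was read at least 17 times in every library. Levels are given as CPM, read counts scaled to a common library size after correction between libraries. Correlation of a library with its group mates lay between 0.981 and 0.989 except for LL ZT12 replicate 3, at 0.969, and results that rest on it are given with and without it. The hepatocyte markers (7 of 7 tested, among them Alb and Ttr) summed to between 101260 and 132560 CPM in every library, a sum led by its most abundant genes. At single times 1 of the 7, Hnf4a, was called between SL and LL (log2 difference 0.39 ± 0.11 at ZT6, edgeR adjusted p = 0.0118). The interaction of photoperiod and ZT, a change of that difference over the day, was called for Tat, Cps1 and Hnf4a. These 3 of 7 (edgeR adjusted p = 0.00664, 0.0219 and 0.00815) stood beside 32.7% of all tested genes. Time of day was called for 2 of the 7 in SL and 1 in LL, against 19.1% and 18.3% of all tested genes. The part of these markers in the results below was not tested. The 5 skeletal muscle markers (Acta1, Ckm, Myh4, Tnnt3, Mylpf) varied from 0.327 to 157.85 CPM in sum. Their range was 8.30 to 157.85 CPM in LL ZT18 against 0.661 to 24.8 in SL ZT18, and 8 libraries lay more than 10 times above the median of 1.09 CPM. None of the 5 was at 0 in all libraries, all 5 varied with time of day in LL, 1 (Myh4) was called between SL and LL at ZT18, and their part in the results below was not tested except where values without those 8 libraries are given. Markers of other cells moved as well. Of the adipocyte markers 2 of 5 were high enough to be tested, and their 5-gene sum was 9.01 to 17.6 CPM in SL and 7.57 to 8.97 in LL at ZT6, with no overlap at ZT18 either, where the median was 8.70 CPM in SL and 11.7 CPM in LL. Cidec, a lipid droplet gene of that list that fatty hepatocytes also express, was higher in SL at ZT6 (1.71 ± 0.29, edgeR adjusted p = 7.85e-05) and lower at ZT18 (-0.98 ± 0.30, 0.0328), the signs of most members at those times. Of 6 sinusoidal endothelium markers 3 were higher in SL at ZT12 (Stab2, Lyve1 and Oit3), with a sum of 294 to 336 CPM in SL and 200 to 291 in LL, and Stab2 was lower at ZT0. Single markers of other lists were called too, Lrat of 5 stellate cell markers at ZT6, Clec4f of 7 Kupffer cell markers at ZT12, Sox9 of 5 cholangiocyte markers at ZT0 and ZT12, and Cela1, the 1 tested pancreas marker, at ZT6 and ZT18. None of these lists had a marker at 0 in all libraries, and their part in the results below was not tested. In bulk tissue, fewer cells of a type and less RNA per cell cannot be told apart.

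The first question was at which times of day the oxidation genes differed between photoperiods. At ZT6, 14 of the 32 genes were called, all higher in SL, where 15.3% of all tested genes were called (6.9% higher and 8.38% lower in SL). They were Slc22a5, Cpt1a, Crat, Acadl, Acadm, Hadh, Eci2, Decr1, Acaa1a, Acaa1b, Ehhadh, Hsd17b4, Pex11a and Cyp4a14. The direction was opposite at ZT18, where 4 genes were called, all lower in SL (Slc22a5, Cpt1a, Eci2 and Pex11a), against 9.21% of all genes (4.82% higher and 4.39% lower). At ZT0 5 genes were called, with Slc22a5, Cpt1a, Acaa1a and Bdh1 higher and Pdk4 lower in SL, against 11% of all genes (6.07% higher and 4.97% lower). At ZT12 5 genes were called, with Fabp1, Cpt1a, Eci2 and Bdh1 lower and Pdk4 higher, against 12.4% of all genes (6.05% higher and 6.4% lower). The members' shares at ZT0, ZT12 and ZT18 lay near those of all genes. A call means an adjusted p under 0.05 in edgeR's quasi-likelihood F-test, with adjustment over all 14456 genes.

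Averaged over the 4 times, no member passed the test. The median log2 difference of the 32 genes, SL minus LL, was 0.003 at ZT0, 0.24 at ZT6, 0.014 at ZT12 and -0.16 at ZT18, while the median of all tested genes lay between -0.007 and 0.013 at the same times. Estimates were above 0 for 30 of 32 genes at ZT6 and for 6 of 32 at ZT18, against 49% and 52.3% of all tested genes. For the mean of the 4 ZTs they were above 0 for 27 of 32 members (84.4%, median 0.055) and for 50.7% of all tested genes (median 0.0013). For the mean of the 4 ZTs edgeR called 0 of the 32 genes and 0 of all 14456, with 2 members and 730 genes at an unadjusted p under 0.05. DESeq2 called 0 members and 6 genes there, and limma-voom called 0 of both. A change of the SL minus LL difference over the day, tested as the interaction of photoperiod and ZT, was called for 17 of 32 genes, against 32.7% of all tested genes.

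**Figure D1:**
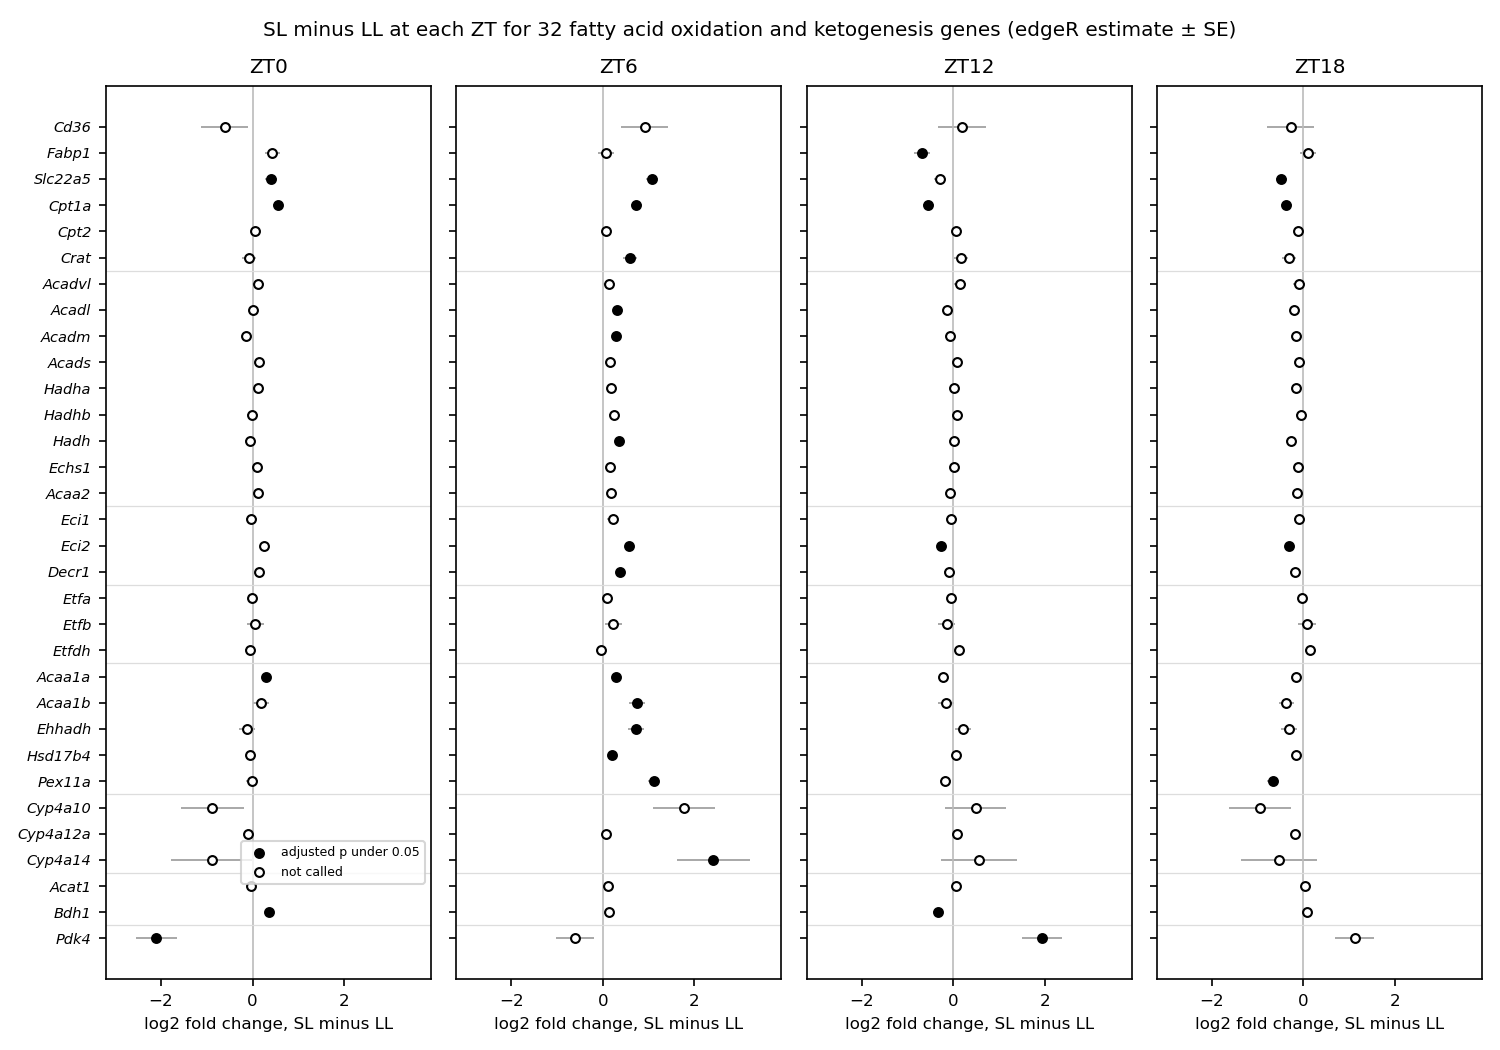
Log2 fold change, SL minus LL, with its standard error for each of the 32 genes at the 4 ZTs, ordered by role with thin lines between role groups; filled points passed the adjusted p threshold. At ZT6 the points lie mostly right of 0 and 14 are filled, at ZT18 they lie mostly left of 0 and 4 are filled, and Pdk4 at the bottom moves against Cpt1a at ZT0 and ZT12.

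Single libraries moved these counts. Without LL ZT12 replicate 3 the counts were 7 at ZT0, 19 at ZT6, 4 at ZT12 and 7 at ZT18, while over all tested genes they went from 1596, 2208, 1799 and 1331 to 2255, 3053, 1682 and 1980. The 5 genes added at ZT6 were Acads, Hadha, Hadhb, Echs1 and Acaa2, all of the mitochondrial spiral. Without SL ZT6 replicate 1 the count at ZT6 was 9 (1919 over all genes). It was 11 without SL ZT6 replicate 3 or LL ZT6 replicate 3 (1762 and 1705 over all genes). Without LL ZT6 replicate 4 or replicate 1 it was 10 and 13 (1636 and 1999 over all genes). It rose to 15 without SL ZT6 replicate 2 or LL ZT6 replicate 2 (1731 and 1926 over all genes). Without SL ZT18 replicate 1 the count at ZT18 was 1 (1082 over all genes). Without the 8 libraries high in muscle markers, which leaves 1 library in LL ZT18, the counts were 2 at ZT0, 11 at ZT6, 4 at ZT12 and 0 at ZT18. Over all 15380 genes tested in that fit 1022, 1456, 1437 and 62 were called, so at ZT18 few genes of any kind were.

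The carnitine shuttle held differences at all 4 times. Of the 6 uptake and shuttle genes, 3 were higher in SL at ZT6, 2 were lower at ZT18 and 4 had an interaction. Over all tested genes these shares were 6.9%, 4.39% and 32.7%. Cpt1a, which codes for the liver form of the gatekeeper of mitochondrial entry (ENSMUSG00000024900, chromosome 19 from 3322334 to 3385733 on GRCm38), was the only member called at all 4 times. At ZT6 its level was 1126, 868, 930 and 750 CPM in the 4 SL mice and 623, 586, 489 and 522 CPM in the 4 LL mice. At ZT12 the order was turned, with 570, 580, 498 and 539 CPM in SL and 851, 964, 565 and 807 CPM in LL. The ranges did not overlap at ZT6, and at ZT12 they overlapped through the 565 CPM of LL replicate 3. At ZT0 the SL mice had 669, 746, 812 and 682 CPM and the LL mice 468, 484, 542 and 485 CPM, and at ZT18 the values were 542, 497, 545 and 551 against 678, 658, 662 and 765 CPM, with no overlap at either time. The log2 difference was 0.56 ± 0.12 (SE) at ZT0 (edgeR adjusted p = 0.00163), 0.73 ± 0.12 at ZT6 (5.28e-05), -0.54 ± 0.12 at ZT12 (0.00193) and -0.37 ± 0.12 at ZT18 (0.0432). The ZT18 call was lost whenever 1 of the 8 libraries of that time was left out, and the ZT12 call in a fit of those 2 groups alone (adjusted p = 0.0589).

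Slc22a5 codes for OCTN2, the transporter that brings carnitine into the cell (ENSMUSG00000018900, chromosome 11 from 53864542 to 53891660). At ZT6 it stood at 34.1, 27.6, 33.2 and 25.1 CPM in SL and at 16.5, 16.1, 13.6 and 11.3 CPM in LL, with no overlap. At ZT18 the SL mice had 12.4, 14.1, 15.1 and 17.9 CPM and the LL mice 22.5, 19.03, 20.1 and 21.3 CPM, so SL was the lower group with no overlap. The log2 difference was 1.07 ± 0.13 at ZT6 (edgeR adjusted p = 4.71e-07) and -0.48 ± 0.13 at ZT18 (0.0146), and 0.40 ± 0.13 at ZT0 (0.0423). The ZT0 call was lost in 9 of the 32 fits that each left out 1 library, and the ZT18 call without SL ZT18 replicate 1 or LL ZT18 replicate 1. At ZT12 the estimate of -0.30 ± 0.13 did not pass (adjusted p = 0.130). Of its 50-base stretches 27.1% also occur in another gene, nearly all in Slc22a21, which was counted at only 0.522 CPM on average.

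The other genes of entry were called at fewer times. Crat, a carnitine acetyltransferase gene, was higher in SL at ZT6 (95.1 ± 22.2 against 63.3 ± 11.9 CPM, SD, n = 4) with a log2 difference of 0.59 ± 0.15 (edgeR adjusted p = 0.00714). Cpt2, which codes for the inner-membrane partner of CPT1A, stayed between 135 and 176 CPM in all 32 mice, and its estimates lay between -0.12 and 0.07 with none called. Cd36, a fatty acid uptake receptor gene also expressed in macrophages and endothelium, ranged from 17.7 to 162 CPM among mice. Its ZT6 means were 98.8 ± 60.8 CPM in SL and 52.5 ± 43.2 CPM in LL, a difference within that spread (adjusted p = 0.256). Fabp1, the abundant fatty acid binding protein of hepatocytes, was called lower in SL at ZT12 (-0.68 ± 0.17, edgeR adjusted p = 0.00812), but LL ZT12 replicate 3 held 10522 CPM beside 4911, 5361 and 4962 CPM in its group mates. Without that library the adjusted p was 0.0906, while Fabp1 became called at ZT0 (0.00989), where SL was the higher group.

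**Figure D2:**
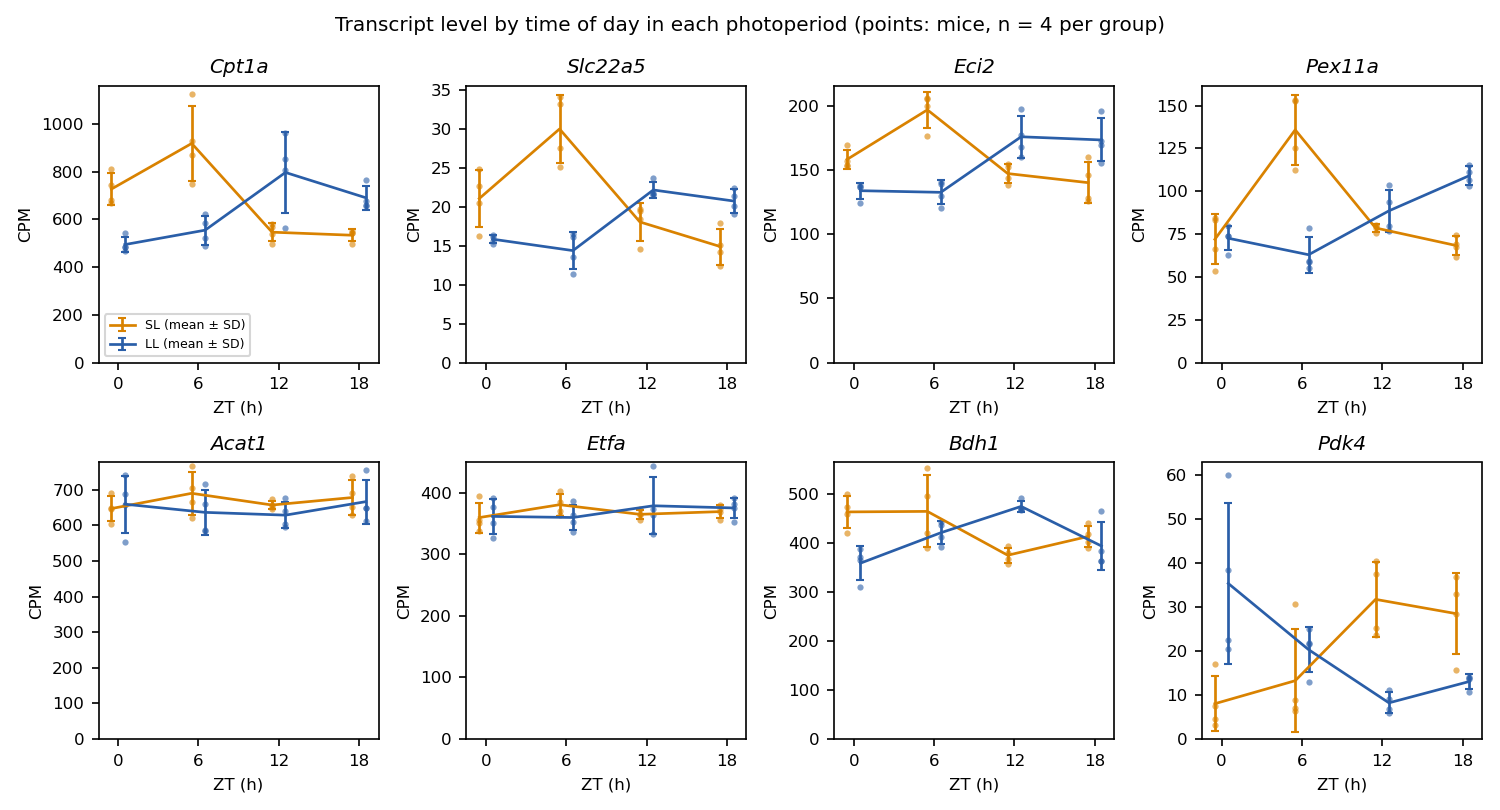
Level in CPM at each ZT for 8 of the genes, with 1 point per mouse and the group mean ± SD (n = 4) in SL and LL. Cpt1a, Slc22a5, Eci2 and Pex11a are highest at ZT6 in SL and at ZT12 or ZT18 in LL, Acat1 and Etfa stay level, and Pdk4 runs from 8.06 CPM at ZT0 to 31.8 at ZT12 in SL and from 35.4 down to 8.25 in LL.

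Differences in the mitochondrial spiral were small and mostly at ZT6. Of its 9 genes, 3 were higher in SL at ZT6 (Acadl, Acadm and Hadh), 0 were called at ZT0, ZT12 or ZT18, and 4 had an interaction (those 3 and Acaa2). Over all tested genes 6.9% were higher at ZT6, 11%, 12.4% and 9.21% were called at ZT0, ZT12 and ZT18, and 32.7% had an interaction. At ZT6 all 9 estimates were above 0, 7 of 9 had an unadjusted p under 0.05 in edgeR (77.8%, against 27.5% of all tested genes), and DESeq2 called 4 and limma-voom 3. At an unadjusted p under 0.05 edgeR gave 0, 0 and 2 genes at ZT0, ZT12 and ZT18, DESeq2 called 0, 0 and 1, and limma-voom called 0 at each. Hadh, the short-chain hydroxyacyl-CoA dehydrogenase gene (ENSMUSG00000027984, chromosome 3 from 131233419 to 131272101), had 539, 433, 556 and 481 CPM at ZT6 in SL and 408, 444, 370 and 345 CPM in LL. These ranges overlap through SL replicate 2 and LL replicate 2, and the log2 difference was 0.36 ± 0.09 (edgeR adjusted p = 0.00781). Acadl, the long-chain acyl-CoA dehydrogenase gene (ENSMUSG00000026003, chromosome 1 from 66830839 to 66863277), had 372, 281, 353 and 294 CPM at ZT6 in SL and 277, 276, 262 and 230 CPM in LL. Its ranges were apart, and the log2 difference was 0.31 ± 0.08 (adjusted p = 0.00828). Acadm, the medium-chain dehydrogenase gene, stood at 443 ± 44.1 against 362 ± 34.3 CPM (SD, n = 4), a log2 difference of 0.29 ± 0.09 (adjusted p = 0.0209). The ZT6 calls of Acadl and Acadm were lost without SL ZT6 replicate 1 and without LL ZT6 replicate 4, and that of Acadm also without SL ZT6 replicate 3.

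No other spiral gene was called at a single time. Acaa2, the thiolase of the spiral and, per kilobase of exon, its most abundant member (613.87 CPM per kb), stood at 983 ± 55.3 CPM at ZT6 in SL and 867 ± 40.1 in LL (log2 difference 0.18 ± 0.07, edgeR adjusted p = 0.0875). Its interaction (adjusted p = 0.0331) was lost in 8 of the 32 fits that left out 1 library. Hadha and Hadhb code for the 2 subunits of the trifunctional protein and lie head to head on chromosome 5, Hadha on the minus strand ending at 30155162 and Hadhb on the plus strand starting at 30155248. Their ZT6 differences were 0.19 ± 0.09 and 0.25 ± 0.11, and neither passed (adjusted p = 0.196 and 0.144). Hadhb shares 62.4% of its 50-base stretches with other genes, mostly Gm13910, so its level of 16.6 CPM per kb beside 50.8 for Hadha is uncertain. Acadvl, the very long-chain dehydrogenase gene, shares 42.9% of its exonic bases with Dvl2 on the opposite strand and was low in 1 library, at 140 CPM in LL ZT12 replicate 3 beside 298, 286 and 300 CPM.

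Of the 3 enzymes for unsaturated fatty acids, Eci2 was called at ZT6, ZT12 and ZT18, Decr1 at ZT6 and Eci1 at no time. Eci2 codes for an enoyl-CoA isomerase of mitochondria and peroxisomes (ENSMUSG00000021417, chromosome 13 from 34977748 to 35027096). At ZT6 it had 206, 176, 205 and 200 CPM in SL and 130, 139, 141 and 121 CPM in LL, with a gap between the groups. At ZT12 the SL mice had 144, 154, 138 and 153 CPM and the LL mice 178, 168, 198 and 160 CPM, and again the groups were apart, with SL now the lower. The log2 difference was 0.57 ± 0.08 at ZT6 (edgeR adjusted p = 9.64e-06), -0.26 ± 0.08 at ZT12 (0.0374) and -0.31 ± 0.08 at ZT18 (0.0143). The ZT12 call was lost in 5 of the 32 fits without 1 library and the ZT18 call in 3. Decr1, the mitochondrial dienoyl-CoA reductase gene (ENSMUSG00000028223, chromosome 4 from 15917240 to 15945507), had 344, 277, 325 and 299 CPM at ZT6 in SL and 234, 278, 226 and 217 CPM in LL, and the ranges met in replicate 2 of each group. Its log2 difference was 0.38 ± 0.10 (adjusted p = 0.00514).

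Electron transfer gave no calls. Etfa, Etfb and Etfdh code for the flavoprotein and its dehydrogenase that pass electrons from acyl-CoA dehydrogenases to the respiratory chain. None of the 3 was called in any of the 9 comparisons by edgeR, DESeq2 or limma-voom, and none reached an unadjusted p of 0.05 in edgeR. Etfa (ENSMUSG00000032314, chromosome 9 from 55454508 to 55512243) had 384, 364, 370 and 403 CPM at ZT6 in SL and 363, 352, 387 and 337 CPM in LL, with overlapping ranges, and its estimates lay between -0.05 and 0.08 with an SE of 0.07. Etfdh (ENSMUSG00000027809, chromosome 3 from 79603788 to 79629500) had 414, 409, 440 and 433 CPM at ZT18 in SL and 346, 367, 384 and 447 CPM in LL, again overlapping (log2 difference 0.13 ± 0.09, edgeR adjusted p = 0.449). Etfb stood at 103 CPM in LL ZT12 replicate 3 and between 34.3 and 60.3 CPM in every other library, and 67.3% of its 50-base stretches lie in Gm45233 as well. At ZT6 the SL range of Etfb, 48.0 to 52.4 CPM, lay above its LL range of 40.8 to 45.6 CPM. The difference there was not called (0.23 ± 0.19, edgeR adjusted p = 0.487).

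All 5 peroxisomal genes were higher in SL at ZT6, and all 5 had an interaction, where 6.9% and 32.7% of all tested genes did. Pex11a, whose product drives peroxisome division (ENSMUSG00000030545, chromosome 7 from 79735957 to 79743131), had the smallest interaction p of the 32 genes (edgeR adjusted p = 3.03e-08). At ZT6 it had 153, 113, 153 and 125 CPM in SL and 58.7, 78.7, 59.1 and 55.4 CPM in LL. At ZT18 it had 61.6, 67.7, 69.5 and 74.7 CPM in SL and 116, 103, 107 and 111 CPM in LL. The groups were apart at both times and changed places between them. The log2 difference was 1.11 ± 0.13 at ZT6 (adjusted p = 2.19e-07) and -0.68 ± 0.13 at ZT18 (0.00047), and -0.01 ± 0.13 and -0.17 ± 0.13 at ZT0 and ZT12, where neither passed. Without the 8 libraries high in muscle markers the ZT18 call was lost (0.179).

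Acaa1a and Acaa1b code for the peroxisomal thiolases A and B and lie near each other on chromosome 9 (119339676 to 119350299 and 119148023 to 119157093). They share 34% and 35.5% of their 50-base stretches, so reads could be split between them. Acaa1b had 1247, 833, 1404 and 1246 CPM at ZT6 in SL and 740, 833, 668 and 573 CPM in LL, and the groups met at 833 CPM in replicate 2 of each. Acaa1a had 241, 212, 250 and 217 CPM in SL and 202, 170, 189 and 190 CPM in LL, with no overlap. The log2 difference was 0.75 ± 0.17 for Acaa1b (edgeR adjusted p = 0.00205) and 0.29 ± 0.09 for Acaa1a (0.0237), and whether the 2 genes differ in response was not tested. Ehhadh, the peroxisomal bifunctional enzyme gene and a textbook PPAR alpha target, stood at 480 ± 135 against 292 ± 87.8 CPM at ZT6 (SD, n = 4; log2 difference 0.72 ± 0.17, edgeR adjusted p = 0.00427). Hsd17b4, the second bifunctional enzyme gene, rose least (565 ± 37.7 against 493 ± 24.7 CPM, log2 difference 0.20 ± 0.06, adjusted p = 0.0322). The ZT6 calls of Acaa1a and Hsd17b4 were each lost without any 1 of 4 or 5 libraries of that time.

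Promoters of the genes that moved together are printed to show what lies upstream of them. RefSeq windows on GRCm38.p6, from 250 bases before to 50 after the transcription start, were given for 24 of the 32 genes. Below are the upstream bases outside annotated exons of Cpt1a (chr19:3323051-3323284, plus strand), Slc22a5 (chr11:53891704-53891953, minus strand), Pex11a (chr7:79743184-79743381, minus strand) and Pdk4 (chr6:5496310-5496528, minus strand). The first 3 were higher in SL at ZT6, where Pdk4 was not called. At ZT0 and ZT12 Pdk4 was called in the direction opposite to Cpt1a. Each reads 5′ to 3′ on the strand of its gene, and capitals mark the hexamer AGGTCA, which nuclear receptors such as PPAR alpha bind in pairs, on either strand.
Cpt1a: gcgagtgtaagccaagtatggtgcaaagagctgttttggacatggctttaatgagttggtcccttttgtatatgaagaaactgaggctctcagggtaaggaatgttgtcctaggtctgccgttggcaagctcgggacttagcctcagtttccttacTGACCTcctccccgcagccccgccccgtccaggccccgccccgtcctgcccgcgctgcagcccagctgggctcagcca
Slc22a5: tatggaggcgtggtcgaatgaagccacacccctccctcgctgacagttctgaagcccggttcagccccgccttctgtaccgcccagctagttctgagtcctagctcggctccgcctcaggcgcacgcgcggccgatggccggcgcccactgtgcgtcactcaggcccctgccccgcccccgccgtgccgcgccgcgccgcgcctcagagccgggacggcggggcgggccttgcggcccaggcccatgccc
Pex11a: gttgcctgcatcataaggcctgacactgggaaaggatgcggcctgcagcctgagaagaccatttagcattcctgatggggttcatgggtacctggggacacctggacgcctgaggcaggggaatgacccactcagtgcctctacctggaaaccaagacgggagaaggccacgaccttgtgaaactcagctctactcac
Pdk4: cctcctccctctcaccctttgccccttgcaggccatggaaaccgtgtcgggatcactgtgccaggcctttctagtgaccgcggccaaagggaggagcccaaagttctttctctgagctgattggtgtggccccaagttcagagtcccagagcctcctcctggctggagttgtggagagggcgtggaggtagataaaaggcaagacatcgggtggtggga

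Only the Cpt1a stretch holds this hexamer among these 4, on the strand opposite to the gene and starting 94 bases before the transcription start. Searched on both strands, the hexamer was in 6 of the 25 member windows (24%), those of Acadm, Acadvl, Cd36, Cpt1a, Echs1 and Fabp1, and in 16.3% of all 32851 windows. The direct repeat DR1, a pair of these hexamers with a single base between them, was in 0 member windows and in 0.0396% of all windows. The E-box CACGTG, to which clock activators bind, was in 0 member windows and 7.15% of all, and the D-box TTATGTAA in 0 and 0.938%. These counts describe the letters of these windows only.

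Among the 32 genes Cyp4a14 and Cyp4a10 varied most between mice of a group, with a median SD of 74.9% and 61.4% of the mean, while the third omega-oxidation gene, Cyp4a12a, was at 8.32%. Cyp4a14 codes for a fatty acid omega-hydroxylase and is a classic PPAR alpha target (ENSMUSG00000028715, chromosome 4 from 115486200 to 115496142). It had 162, 4.23, 151 and 20.2 CPM at ZT6 in SL and 12.4, 40.2, 10.7 and 0.776 CPM in LL. SL replicates 1 and 3 stood above every other library of the series, and SL replicates 2 and 4 lay inside the LL range, so the groups overlapped. The log2 difference of 2.41 ± 0.80 passed (edgeR adjusted p = 0.0375), but over the alternative fits the adjusted p ranged up to 0.149. It was lost without SL ZT6 replicate 1 (0.135) or replicate 3 (0.130), without LL ZT6 replicate 1, 3 or 4, with limma-voom, on the authors' log2 values, with a fit of the 2 groups alone, and under both muscle-marker alternatives. Cyp4a10, its neighbour on the chromosome (ENSMUSG00000066072, 115518264 to 115533649), had 304, 37.9, 287 and 62.1 CPM in SL and 37.6, 119, 41.5 and 4.52 CPM in LL, the same pair of mice on top, and did not pass (1.77 ± 0.68, adjusted p = 0.0774). Its reads could be shared with Cyp4a32 (25% of its 50-base stretches). Cyp4a12a, the isoform typical of male mice, stayed between 367 and 574 CPM in all mice and was called in 0 of the 9 comparisons.

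Of the 2 ketone body genes, 1 changed. Bdh1 codes for the dehydrogenase that interconverts acetoacetate and 3-hydroxybutyrate (ENSMUSG00000046598, chromosome 16 from 31422280 to 31458901). At ZT0 it had 473, 420, 500 and 460 CPM in SL and 372, 310, 388 and 365 CPM in LL. At ZT12 it had 368, 380, 358 and 393 CPM in SL and 470, 491, 467 and 470 CPM in LL. The groups were apart at both times and in opposite order, with log2 differences of 0.37 ± 0.09 (edgeR adjusted p = 0.00663) and -0.34 ± 0.09 (0.0118), and estimates of 0.14 and 0.07 that did not pass at ZT6 and ZT18. The ZT0 call was lost without the 8 libraries high in muscle markers (0.123). Acat1, the acetoacetyl-CoA thiolase gene (ENSMUSG00000032047, chromosome 9 from 53580522 to 53610382), had 706, 622, 667 and 766 CPM at ZT6 in SL and 583, 715, 661 and 587 CPM in LL, overlapping, and was not called in any comparison. Its interaction had an edgeR adjusted p of 0.772.

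Pdk4 ran against Cpt1a (ENSMUSG00000019577, chromosome 6 from 5483351 to 5496309). At ZT0 it had 4.60, 3.17, 16.99 and 7.46 CPM in SL and 38.5, 22.6, 60.0 and 20.5 CPM in LL. At ZT12 it had 37.5, 40.6, 25.4 and 23.7 CPM in SL and 6.90, 11.2, 5.87 and 9.01 CPM in LL. The groups were apart at both times, with the lower group at ZT0 being the higher at ZT12. The log2 difference was -2.10 ± 0.45 at ZT0 (edgeR adjusted p = 0.00169) and 1.95 ± 0.44 at ZT12 (0.00251), the largest among called members at each of those times. At ZT6 (-0.60 ± 0.42) and ZT18 (1.12 ± 0.42) it did not pass (adjusted p = 0.378 and 0.0986). Both ZT0 and ZT12 calls held in every alternative fit and without any 1 library.

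The next question was whether the genes kept a daily rhythm in each photoperiod and when they peaked. Time of day was called for 12 members in SL and 10 in LL, against 19.1% and 18.3% of all tested genes, and 6 were called in both, against 12.1%. Another 6 were called in SL only and 4 in LL only, which is no test of a difference between SL and LL, and 16 were called in neither. A 24 h wave was fitted to the group means, with 4 times 6 h apart that cannot fix the period. In SL, Cpt1a peaked at ZT 4.13 ± 0.41 h (jackknife SE), Slc22a5 at 5.20 ± 0.61, Eci2 at 5.21 ± 0.41, Pex11a at 6.58 ± 0.60, Bdh1 at 1.82 ± 1.24 and Pdk4 at 14.1 ± 0.81. In LL the same genes peaked at 13.7 ± 0.57, 15.2 ± 0.52, 14.97 ± 0.57, 16.7 ± 0.55, 11.1 ± 0.82 and 1.11 ± 0.46.

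The order of the peaks was alike in both photoperiods, with Bdh1 first, then Cpt1a, then Eci2 and Slc22a5, then Pex11a, and Pdk4 far from them. Eci2 and Slc22a5 lay within 1 SE of each other, and differences between other neighbours were not tested. The SL peak minus the LL peak was -9.59 ± 0.71 h for Cpt1a, -10.0 ± 0.80 for Slc22a5, -9.77 ± 0.70 for Eci2, -10.1 ± 0.81 for Pex11a, -9.25 ± 1.49 for Bdh1 and -11.01 ± 0.93 for Pdk4, with a median of -9.89 h. On a 24 h circle these values cannot be told apart from SL running later by the remainder of the cycle. Amplitudes were 0.44 ± 0.06 (log2) in SL and 0.37 ± 0.08 in LL for Cpt1a, 0.51 ± 0.08 and 0.36 ± 0.05 for Slc22a5, 0.50 ± 0.06 and 0.43 ± 0.06 for Pex11a and 1.298 ± 0.29 and 1.04 ± 0.20 for Pdk4. The LL value was the larger for Eci2 (0.25 ± 0.05 in SL and 0.27 ± 0.04 in LL) and Bdh1 (0.17 ± 0.04 and 0.21 ± 0.04). Whether amplitudes differed between photoperiods was not tested. Over all 32 genes the median amplitude was 0.16 ± 0.04 in both photoperiods.

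**Figure D3:**
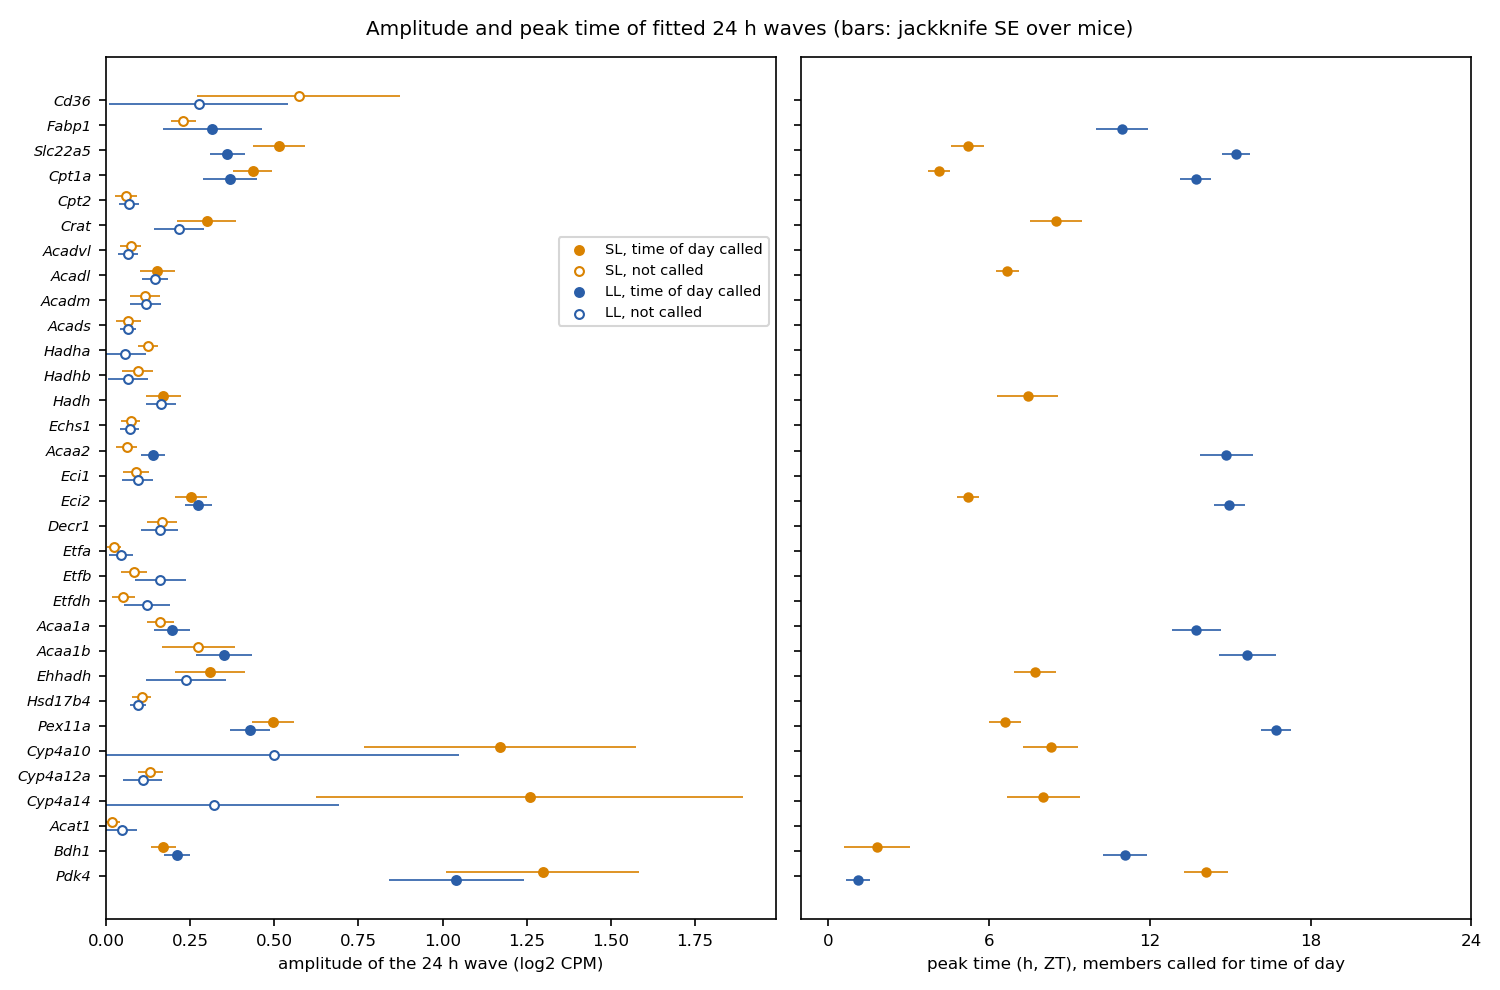
Left, log2 amplitude of the fitted 24 h wave for each of the 32 genes in SL and LL, filled where time of day passed the threshold; right, peak time in hours for those genes; bars are jackknife SE over mice. Peaks of called genes in SL lie between 1.82 and 8.51 h apart from Pdk4 at 14.1 h, and in LL between 10.96 and 16.7 h apart from Pdk4 at 1.11 h.

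When each SL group was set against the LL group 12 h away, the interaction was called for 0 of the 32 genes, where 0.519% of all tested genes were called by edgeR. At an unadjusted p under 0.05 in edgeR there were 5 members (15.6%), where 9.84% of all tested genes were. DESeq2 and limma-voom called 0 members, and 228 and 59 of all 14456 genes. The offset between photoperiods was known from earlier results when this comparison was chosen. Without LL ZT12 replicate 3 edgeR called 1, Cpt1a (adjusted p = 0.0316). Fits that each left out 1 library called 55 to 150 of all genes. A p that misses the threshold does not show that the shifted curves were the same.

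The Cyp4a14 values of single mice raised the question of whether other members varied with it inside a group, and this gene was chosen after its values were seen. Each mouse's log2 CPM was taken as its deviation from its group mean, which removes photoperiod and ZT, and 31 relations were computed over the 32 mice with 100000 permutations within groups. Cyp4a10 followed most closely (Pearson r = 0.941, Spearman rho = 0.916), then Ehhadh (0.891 and 0.832), Hadh (0.847 and 0.847), Acadm (0.810 and 0.859), Cd36 (0.798 and 0.818), Crat (0.794 and 0.764) and Acaa1b (0.788 and 0.764). Permutation p was 1e-05, the smallest these permutations can give, for all of these except Crat (4e-05 and 0.00012), and 5.2e-05 after adjustment over the 31 relations (Crat 0.000155 and 0.000338). Without the 2 mice farthest from the median of Cyp4a14, r was 0.925 for Cyp4a10, 0.828 for Ehhadh, 0.825 for Hadh and 0.791 for Cd36. Within SL and within LL, r was 0.951 and 0.956 for Cyp4a10, 0.903 and 0.897 for Ehhadh, and 0.836 and 0.750 for Cd36. In total 23 of 31 Pearson relations had an adjusted permutation p under 0.05, all positive, and 27 by Spearman. Relations with Cyp4a14 were computed for members only, so no share over all tested genes can be set beside these counts. Whether the relations are particular to the members was not tested.

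Genes with a strong interaction of photoperiod and ZT had a range of correlations with Cyp4a14, and differences between these correlations were not tested. Slc22a5 (r = 0.731, rho = 0.776, adjusted permutation p = 0.00062 and 0.000276) and Pex11a (0.718 and 0.754, adjusted permutation p = 0.00031 and 0.000276) followed it. Cpt1a had r = 0.356 and rho = 0.460 (adjusted permutation p = 0.112 and 0.0296), and Pdk4 had r = 0.418 and rho = 0.425 (0.0744 and 0.0444). Acaa2 (r = 0.142, rho = 0.083), Etfa (0.122 and 0.112) and Fabp1 (0.080 and -0.003) did not follow it at an adjusted permutation p under 0.05. Cyp4a12a had r = 0.757 within LL and -0.10 within SL. All values of a mouse come from 1 library and share its depth and scaling, and when each mouse last ate is not known from the labels.

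**Figure D4:**
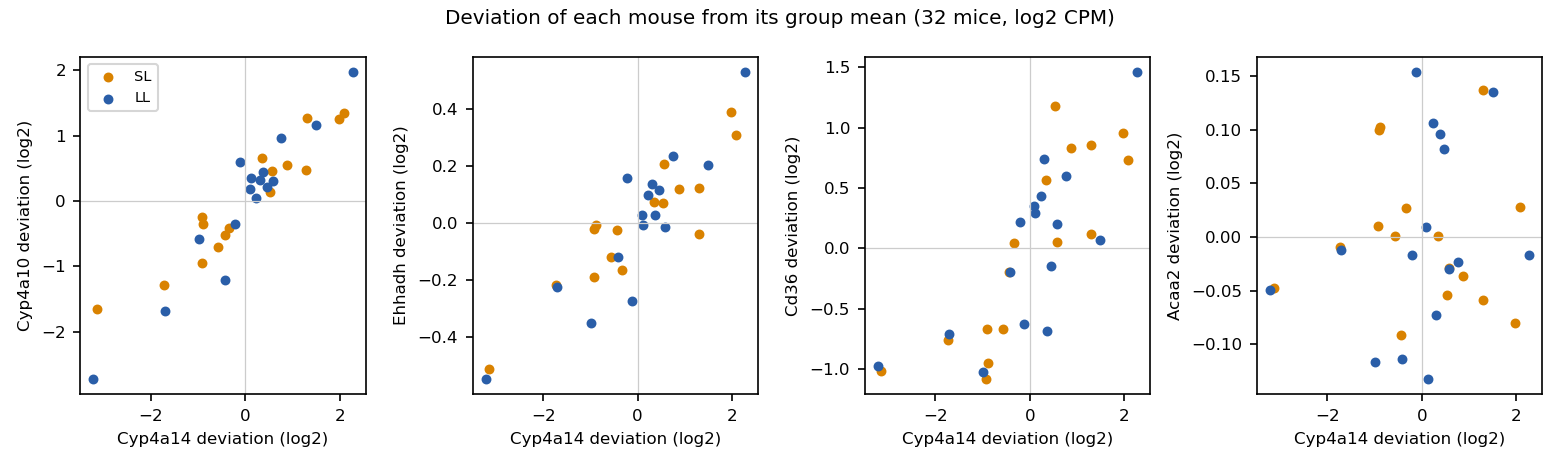
Deviation of each of the 32 mice from its group mean (log2 CPM) for Cyp4a10, Ehhadh, Cd36 and Acaa2 against Cyp4a14, coloured by photoperiod. The first 3 rise along the axis (r = 0.941, 0.891 and 0.798) in SL and LL mice alike, and Acaa2 does not (r = 0.142).

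Further genes of the same routes, from lists chosen with earlier results of these data known, were counted in the same fit. Of 15 further oxidation enzymes and transporters, 6 were higher in SL at ZT6 and 0 lower, 3 were lower at ZT18 and 11 had an interaction, where 6.9%, 4.39% and 32.7% of all tested genes did. Slc25a20, which codes for the carrier that exchanges acylcarnitine across the inner membrane, stood at 134 ± 12.96 against 92.3 ± 8.57 CPM at ZT6 (SD, n = 4; log2 difference 0.54 ± 0.08, edgeR adjusted p = 8.03e-06). Acsl1, the main liver acyl-CoA synthetase gene, was higher at ZT6 (0.74 ± 0.13, adjusted p = 9.51e-05) and ZT12 (0.39 ± 0.13, 0.0403) and lower at ZT18 (-0.67 ± 0.13, 0.000588). Acacb, which codes for the carboxylase whose product malonyl-CoA inhibits CPT1, was higher in SL at ZT0 (0.77 ± 0.23, adjusted p = 0.0275) and ZT6 (0.90 ± 0.23, 0.00643) and lower at ZT18 (-1.10 ± 0.23, 0.0019), the direction of Cpt1a at each of these times. The ZT18 calls of these 3 genes were lost without the 8 libraries high in muscle markers (adjusted p = 0.179, 0.341 and 0.272), and the ZT12 call of Acsl1 was lost in 5 fits without 1 library, LL ZT12 replicate 3 among them.

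Further peroxisomal genes did not move as a block. Of 15, 3 were higher and 3 lower in SL at ZT0, 3 higher and 1 lower at ZT6, 3 higher and 2 lower at ZT12, and 2 higher and 3 lower at ZT18, with an interaction for 7. Over all tested genes the shares higher and lower were 6.07% and 4.97%, 6.9% and 8.38%, 6.05% and 6.4%, and 4.82% and 4.39% at those times, and 32.7% had an interaction. Crot, which codes for the enzyme that moves shortened acyl chains onto carnitine for export from peroxisomes, ran against Cpt1a, with 308, 330, 321 and 367 CPM at ZT0 in SL and 594, 498, 593 and 538 CPM in LL. Its log2 differences were -0.75 ± 0.13 at ZT0, -0.55 ± 0.13 at ZT6, 0.88 ± 0.13 at ZT12 and 0.62 ± 0.13 at ZT18, all called (adjusted p = 0.000122, 0.00275, 1.32e-05 and 0.00153), the signs of Pdk4 at each time. The ZT18 call of Crot was lost without the muscle-marker libraries (0.61).

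Of 5 further ketone body genes, 2 had an interaction (32.7% of all tested genes), and Slc16a1 was the one called at single times. It codes for MCT1, a transporter of lactate and ketone bodies, and was lower in SL at ZT0 (46.9 ± 3.12 against 86.6 ± 14.8 CPM) and ZT6 (52.1 ± 5.80 against 72.9 ± 12.1 CPM) and higher at ZT12 (91.2 ± 6.91 against 38.5 ± 7.15 CPM, SD, n = 4). The log2 differences were -0.89 ± 0.13, -0.48 ± 0.13 and 1.24 ± 0.13 (edgeR adjusted p = 1.06e-05, 0.00724 and 3.47e-08), and the ZT6 call was lost without LL ZT6 replicate 2 (0.0521).

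Of 12 regulators and further PPAR alpha targets, 2 were higher in SL at ZT0 (6.07% of all tested genes), 6 were higher at ZT6 (6.9%), 3 were lower at ZT12 (6.4%), 4 were lower (4.39%) and 1 higher (4.82%) at ZT18, and 10 had an interaction (32.7%). Angptl4, a secreted lipase inhibitor gene and PPAR alpha target, had 115, 139, 130 and 128 CPM at ZT6 in SL and 37.2, 43.2, 30.9 and 29.8 CPM in LL. The groups were far apart and narrow, unlike those of Cyp4a14 in the same mice, and the log2 difference was 1.86 ± 0.20 (edgeR adjusted p = 9.86e-08). Ppara itself was not called at any time (0.56 ± 0.23 at ZT6, adjusted p = 0.0938), with an interaction at 0.0369. Pdk2, the other abundant pyruvate dehydrogenase kinase gene of liver, had the signs of Cpt1a and not of Pdk4, at 0.45 ± 0.09 at ZT0, 0.72 ± 0.09 at ZT6, -0.38 ± 0.09 at ZT12 and -0.41 ± 0.09 at ZT18 (adjusted p = 0.000711, 9.59e-07, 0.00404 and 0.00279). Its ZT18 call was lost without the muscle-marker libraries (0.437). Pdk4 and Pdk2 thus differed in opposite directions at ZT0 and ZT12, where both were called.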

How the data were processed

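Poly-A RNA from 32 mouse livers went into stranded libraries (Illumina TruSeq), per the labels' protocols, and samples were grouped by their own labels. The submitters' processing notes list featureCounts 1.6.2, bcl2fastq 2.20.0, STAR 2.7.2b and the build GRCm38. How strand and multiply mapped reads were counted, and with which annotation, is not stated in the labels. The table the authors deposited holds whole-number read counts for 55471 genes, not normalized. The authors also deposited log2 values for 13432 genes, which lay within 0.0213 of log2 CPM computed here and served as an alternative.

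Counts were scaled by trimmed mean of M values, filtered by filterByExpr (14456 genes kept) and tested with edgeR 4.0.16 in R 4.3.3 (quasi-likelihood F-test) in a single fit of the 8 group means over 32 libraries, with Benjamini-Hochberg adjustment over all tested genes and a threshold of 0.05. An SE is the log2 difference over the root of its F. Waves used log2 CPM with a prior count of 2. Per-mouse values are given for the 2 members of each role with the smallest interaction p, the called member with the largest change at each ZT and the pairs Acaa1a with Acaa1b and Cyp4a10 with Cyp4a14, and of each list of further genes up to 3 called genes with the smallest p at a comparison could be named. Per-mouse values of Fabp1 and Acadvl, and the naming of Ppara, were added after values were seen. Single-gene results of some further genes are not reported here. The members and all gene lists were chosen with earlier results of these data known. Gene bounds came from GENCODE M21, and shared 50-base stretches from its transcripts.

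Alternatives were DESeq2 1.42.0 and its size factors, limma-voom (limma 3.58.1), other filters and scaling, only the groups compared, a replicate block, and fits leaving out libraries singly. After seeing the data, muscle-marker libraries were left out together and the marker sum was used as a covariate. No 2 of the 48 pairs of group mates agreed within counting noise. In simulated counts for 14456 genes at ZT6, 78 of 100 genes changed by a log2 of 1 and 99 of 100 changed by 2 were recovered, with 5 unchanged genes called. Changes under a log2 of 1, the size of most member differences, were not simulated.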

Additional observations from a re-analysis of the deposited data

Results flagged for a closer look

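In 18 of 256 sets (32 genes in 8 groups of 4 mice) 1 mouse lay far from the other 3, a pattern that chance gives in about 1 of 20 sets. LL ZT12 replicate 3, the library least like its group mates, was high in Fabp1 (10522 CPM beside 4911 to 5361) and low in Acadvl (140 beside 286 to 300), Hadha (324 beside 463 to 498) and Hsd17b4 (468 beside 534 to 543). LL ZT0 replicate 2 was low in 5 genes, Crat (47.6 CPM beside 75.5 to 77.2), Decr1 (198 beside 263 to 274), Acaa1b (597 beside 887 to 935), Ehhadh (273 beside 373 to 383) and Cyp4a14 (6.55 beside 15.5 to 18.1), and it is 1 of the 8 libraries high in muscle markers (70.3 CPM in sum), whose part was not tested. SL ZT6 replicate 2 was low in Acads (232 CPM beside 261 to 266) and Hsd17b4 (509 beside 577 to 590), and SL ZT18 replicate 2 was low in Cpt1a (497 beside 542 to 551) and Cyp4a12a (384 beside 440 to 449). The others were single: Acads in SL ZT0 replicate 2 (204 CPM, low), Eci2 in LL ZT0 replicate 1 (124, low), Slc22a5 in LL ZT12 replicate 1 (23.7, high), Bdh1 in LL ZT12 replicate 2 (491, high) and Pdk4 in LL ZT18 replicate 2 (10.7, low).

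For 17 genes the difference between SL and LL itself differed among the 4 ZTs, by the interaction test of edgeR. The adjusted p was 3.03e-08 for Pex11a, 1.27e-07 for Slc22a5, 1.86e-07 for Cpt1a, 5.68e-07 for Eci2 and 2.16e-05 for Pdk4. It was 0.000625 for Bdh1, 0.000864 for Acaa1a, 0.00217 for Acaa1b, 0.00288 for Hadh, 0.00335 for Acadl, 0.00456 for Fabp1 and 0.00469 for Decr1. It was 0.00741 for Ehhadh, 0.00882 for Crat, 0.0116 for Hsd17b4, 0.0123 for Acadm and 0.0331 for Acaa2.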

How the results depend on the processing

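Of 170 called results of single genes (all 32 members and the further genes named by the rule), 102 stayed called under every alternative, 68 were lost under at least 1 and 0 changed sign. The count of members called at ZT0 (5) was 3 without a filter and 2 without the 8 libraries high in muscle markers. Over all genes the unfiltered fit called 1283 of 32791 at ZT0, against 1596 of 14456 in the main fit. At ZT6 (14) the count of members was 10 with only the groups compared and 10 with the marker sum as a covariate. Those 2 fits called 2146 of 13852 and 2005 of 14456 genes at ZT6, against 2208 of 14456 in the main fit. At ZT12 (5) the count of members was 2 with only the groups compared. That fit called 723 of 13440 genes at ZT12, against 1799 of 14456 in the main fit. At ZT18 (4) the count of members was 2 with the marker sum as a covariate, where 981 of 14456 genes were called, against 1331 in the main fit. Without the muscle-marker libraries, which leaves 1 library in LL ZT18 and 2 in SL ZT18, few genes of any kind were called at ZT18. Time of day (12 members in SL, 10 in LL) was called for fewer members without those libraries, and for fewer of all tested genes as well. The cause of these changes was not tested, beyond the smaller number of libraries or genes. Leaving out 1 library at a time gave 3 to 7 at ZT0, 9 to 19 at ZT6, 4 to 6 at ZT12, 1 to 7 at ZT18, 0 to 0 for the mean of the 4 ZTs, 16 to 19 for the interaction, 6 to 19 for time of day in SL (6 without SL ZT6 replicate 1 or 3, 19 without LL ZT12 replicate 3), 8 to 12 in LL and 0 to 1 for LL taken 12 h later. Over all genes the same fits called 1115 to 2255 at ZT0, 1636 to 3053 at ZT6, 1316 to 2341 at ZT12 and 975 to 1980 at ZT18. They called 0 to 3 for the mean, 4327 to 5651 for the interaction, and 55 to 150 for LL taken 12 h later. Time of day was called for 2312 to 3929 genes in SL and 2323 to 3152 in LL. The median amplitude of the members lay between 0.14 and 0.18 in SL and between 0.13 and 0.17 in LL.

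Replicate numbers did not pair the mice: deviations of same-numbered mice correlated at a median of -0.0065 (lowest -0.263, 112 pairs), and 9 of 32 libraries correlated best with their own number. With the replicate number as a block the counts were 4 at ZT0, 13 at ZT6, 5 at ZT12, 4 at ZT18, 17 for the interaction, 11 for the SL time course and 10 for the LL one, and among calls of single genes those of Slc22a5 at ZT0, Cyp4a14 at ZT6 and Hadh for the SL time course were lost.

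Depth limits low genes most: the lowest count of a member was 17 reads, for Cyp4a14.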
